A study of Mus musculus with 20 samples.

Results

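Mouse bone marrow-derived macrophages were compared after 48 h with particles that carried both 3M and PIC (LP 3M PIC) or 3M alone (LP 3M). The aim was to show what differed when particles that carried 3M also carried PIC. The series title speaks of lipoparticles with adjuvants, so LP was taken as the lipoparticle, and 3M and PIC are kept as the codes of the labels. Each condition held cells of the same 5 mice, so the comparison used 10 of the 20 libraries, chosen by the treatment in their titles. Libraries with the same number came from the same mouse, and the main test compared the group means without this pairing, which entered only where a block on mouse is named. The other 10, from the plain particle with PIC (LP PIC) and without it (LP), entered the estimate of spread and 1 further comparison. All 4 conditions shared culture in medium conditioned by L929 fibroblasts, which secrete the macrophage growth factor CSF-1. The sources used here do not state the strain, age or sex of the mice or the amounts of 3M and PIC. The comparison assumes equal amounts of 3M on both kinds of particle. The tables list 24421 genes, of which 12132 passed the filter on low counts and were tested.

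Macrophages detect microbial nucleic acids and lipids with pattern recognition receptors, which switch on the transcription factor NF-kB and the interferon regulatory factors. NF-kB drives cytokines such as Il6 and Il12b, and both kinds of factor drive Ifnb1, the gene of interferon beta. Secreted interferon beta acts back on the cells through STAT transcription factors and induces antiviral genes, GTPases that attack intracellular microbes, and the machinery of antigen presentation. Activated macrophages are known to stop dividing, to make less cholesterol and to lose genes of the resting state.

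Depth ran from 12.54 to 23.41 M counts in LP 3M PIC (median 21.55 M, lowest in mouse 3) and from 21.90 to 23.87 M in LP 3M (median 22.03 M), and 13754 to 14680 genes against 13901 to 14123 were detected. A floor of 3 counts was worth 0.126 to 0.239 CPM (counts relative to the size of the library). Both libraries of mouse 5 stood apart in the same sense on the first principal component, while the distance between its 2 libraries lay within the range of the other mice (component scores 83.1 apart for mouse 5 and 74.7 to 86.0 for the others). The second component, with 20.6% of the variance, parted the mice in both groups. Mice 1 and 2 lay at −37.9 to −23.2 and mice 3, 4 and 5 at 4.65 to 33.1, and the cause was not tested. Lyz2, Adgre1 and Cd68, markers of macrophages, averaged 6654, 2479 and 1724 CPM in LP 3M PIC and 14050, 4142 and 1950.2 CPM in LP 3M. Of 8 macrophage markers 3 fell (Lyz2, Adgre1 and Csf1r), 1 rose (Fcgr1) and 4 were not called, Cd68 among them. The summed level of the 8 was 11411 to 16352 CPM in LP 3M PIC and 20984 to 26967 CPM in LP 3M, and its part in the results was not tested. Ribosomal protein genes took 2.11 to 2.52% of the counts in LP 3M PIC and 2.53 to 2.66% in LP 3M, and reads outside annotated genes came to 7.58 to 7.77% and 5.94 to 7.45%.

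The addition of PIC raised interferon-stimulated, inflammatory and antigen-presenting genes, and lowered genes of cell division and cholesterol synthesis. edgeR's quasi-likelihood test called 5032 of the 12132 genes (41.5%) at an adjusted p under 0.05, 2483 higher (20.5%) and 2549 lower (21%) in LP 3M PIC. Calls with a log2 change of 1 or more numbered 622 rises (5.13%) and 727 falls (5.99%). The upper end was longer, with 101 rises and 31 falls of at least 3, and 21 rises and 3 falls of at least 5. The 5 LP 3M PIC libraries all lay above the 5 LP 3M libraries for 1470 genes (12.1%) and all below them for 1591 (13.1%). Genes and list members said to have risen or fallen passed this test, and for each such gene given with its change all 5 mice agreed in direction except where stated. Changes are given on the log2 scale, LP 3M PIC over LP 3M, with the SE from the F-test. CPM are means with the SD over 5 mice, or single values in the order of mice 1 to 5, and show levels per library, not per transcript length. RNA of whole cultures was measured, so fewer cells of a kind and less RNA per cell cannot be told apart.

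**Figure D1:**
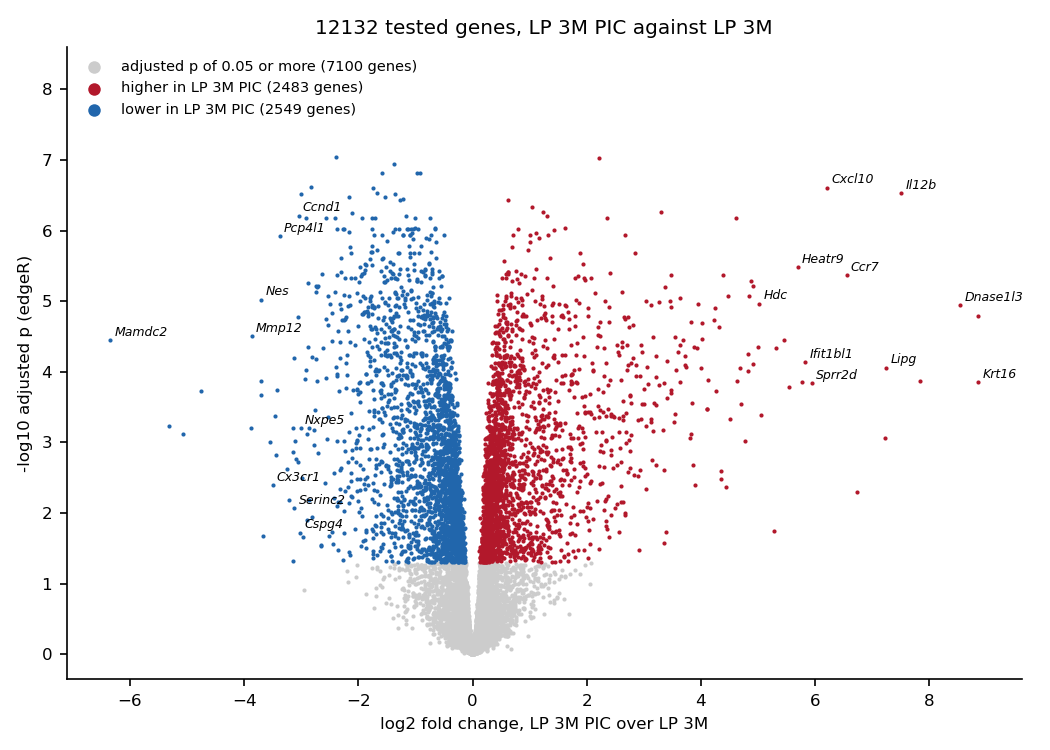
Each point is 1 of 12132 tested genes, with the log2 fold change of LP 3M PIC over LP 3M on the x axis and −log10 of the adjusted p from edgeR on the y axis. Red points (2483) were higher and blue points (2549) lower in LP 3M PIC, and the names mark genes among the largest rises and falls. Krt16 and Dnase1l3 stand at fitted values that depend on how counts near 0 are treated.

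Promoters of 4 genes are shown as examples, chosen because each holds a match to a searched motif and not as typical of their lists, from RefSeq on GRCm38.p6, each running from 250 bases before to 50 bases after the start of transcription. Capitals mark the match to a searched motif, on either strand. Cxcl10 (chr5:92348840-92349139, minus strand) encodes a chemokine for activated T cells and holds an interferon-stimulated response element, searched as GAAA, any 2 bases and GAAA.
Cxcl10: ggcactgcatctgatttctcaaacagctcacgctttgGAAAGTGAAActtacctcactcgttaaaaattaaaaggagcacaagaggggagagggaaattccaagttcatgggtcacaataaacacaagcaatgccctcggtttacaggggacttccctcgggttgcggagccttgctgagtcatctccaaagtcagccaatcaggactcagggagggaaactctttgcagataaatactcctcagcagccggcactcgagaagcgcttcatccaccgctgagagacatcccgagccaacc
Gbp5 (chr3:142496684-142496983, plus strand) encodes a guanylate-binding GTPase and holds that element and an NF-kB site, searched as GGGA, any base and TTTCC, both on the opposite strand.
Gbp5: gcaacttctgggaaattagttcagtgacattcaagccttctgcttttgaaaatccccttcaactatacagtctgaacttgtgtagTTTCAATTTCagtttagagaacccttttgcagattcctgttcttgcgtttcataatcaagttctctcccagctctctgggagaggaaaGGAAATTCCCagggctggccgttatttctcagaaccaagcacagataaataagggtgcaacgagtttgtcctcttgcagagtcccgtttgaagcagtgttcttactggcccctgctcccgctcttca
Il6 (chr5:30012864-30013163, plus strand) encodes an inflammatory cytokine and holds an NF-kB site.
Il6: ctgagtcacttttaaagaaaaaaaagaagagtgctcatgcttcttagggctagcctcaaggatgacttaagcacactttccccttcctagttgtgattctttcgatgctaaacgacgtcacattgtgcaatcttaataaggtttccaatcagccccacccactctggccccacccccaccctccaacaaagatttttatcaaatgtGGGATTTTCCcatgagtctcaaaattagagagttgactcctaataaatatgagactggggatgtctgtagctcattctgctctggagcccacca
Hmgcs1 (chr13:119690101-119690400, plus strand) encodes an early enzyme of cholesterol synthesis and holds a sterol regulatory element, searched as TCACNCCAC, a motif added after the data were seen.
Hmgcs1: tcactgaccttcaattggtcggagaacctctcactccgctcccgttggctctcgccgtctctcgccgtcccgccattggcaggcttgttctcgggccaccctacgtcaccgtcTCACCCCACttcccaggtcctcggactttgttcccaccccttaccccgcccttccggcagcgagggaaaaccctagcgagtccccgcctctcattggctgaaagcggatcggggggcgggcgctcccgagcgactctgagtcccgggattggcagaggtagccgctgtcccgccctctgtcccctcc
Of 12132 tested genes, 9718 (80.1%) were matched by symbol or synonym to a promoter in the RefSeq table. Of those, 384 (3.95%) held the interferon-stimulated response element, 53 (0.545%) the NF-kB site and 130 (1.34%) the sterol regulatory element. A match by synonym can be wrong, and Arg1, on chromosome 10, was given windows on chromosome 4. These counts may therefore hold promoters of other genes. Fewer than 80% of the called genes with a change of at least 1 could be matched in either direction, so no share is given for them, and a match is a description of letters, not a site shown to be bound.

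The gene of interferon beta itself was on in every LP 3M PIC library and silent in every LP 3M library. Ifnb1 (chr4:88522025-88522774) had 2.82, 6.66, 0.905, 1.35 and 1.75 CPM in LP 3M PIC, against 0, 0, 0, 0 and 0 CPM in LP 3M. Mouse 2 was highest, and the groups did not overlap. In counts this was 283 over the 5 LP 3M PIC libraries and 0 over the 5 LP 3M libraries, at least 107-fold higher against a floor of 3 counts over the group (adjusted p = 1.62e-05), and at least 53.1-fold higher without mouse 2. Of 18 genes for interferon receptors, signalling and feedback, 11 rose and 1 fell (median log2 change 0.47, against 0.01 over all tested genes). Batf2, a transcription factor induced by interferon, rose by 2.24 ± 0.32 (28.6 ± 7.83 against 6.04 ± 1.28 CPM). Irf7, the factor that amplifies interferon production, rose by 2.02 ± 0.56. Ptpn2, a phosphatase that restrains STAT signalling, rose by 0.80 ± 0.08. The 1 member that fell was Ifngr1, a chain of the interferon gamma receptor, by 0.39 ± 0.09 (adjusted p = 0.00248).

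Antiviral genes rose together. Of 47 tested, 44 rose and none fell (median 1.38, range 0.39 to 4.48). For 39 of them the groups did not overlap, against 12.1% of all tested genes with LP 3M PIC wholly above. Oasl1, which inhibits translation of Irf7 in the mouse and belongs to the oligoadenylate synthetase-like proteins, had 570.4, 339.5, 802, 885 and 476 CPM in LP 3M PIC, against 14.7, 11.3, 55.8, 37.8 and 17.8 CPM in LP 3M. The lowest LP 3M PIC library, of mouse 2, was above the highest LP 3M library, of mouse 3. Oasl1 rose by 4.48 ± 0.55 (adjusted p = 8.45e-06). Herc6, the main ligase of the antiviral modifier ISG15 in mice, rose by 2.19 ± 0.30 (254 ± 49.05 against 55.7 ± 27.5 CPM), and Trim25, a ligase that assists the RNA sensor RIG-I, by 0.78 ± 0.09 (442 ± 40.95 against 258 ± 26.7 CPM). Ifit1bl1, of the family that binds foreign RNA, was among the largest rises at 5.83 ± 0.91. Its values were 28.8, 9.77, 62.9, 49.7 and 11.01 CPM in LP 3M PIC, against 0.222, 0.328, 1.65, 0.374 and 0.262 CPM in LP 3M. In LP 3M it was highest in mouse 3.

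Guanylate-binding proteins and immunity-related GTPases, which act on the vacuoles of intracellular microbes, rose in 16 of 16 tested cases (median 2.56). The other 3 members of the list, Gbp2b, Gbp10 and Gvin1, did not pass the filter on low counts. Gbp5 had 216, 119, 384, 336 and 185 CPM in LP 3M PIC, against 9.62, 6.24, 34.8, 19.5 and 6.12 CPM in LP 3M. The groups did not overlap, and mice 3 and 4 were highest in both. It rose by 4.02 ± 0.55 (adjusted p = 2.00e-05), Gbp4 by 4.33 ± 0.60 (30.8 ± 13.2 against 1.53 ± 1.45 CPM) and Gbp3 by 3.27 ± 0.41 (340.04 ± 102 against 35.1 ± 21.7 CPM). Members of such families share sequence, and so do Ifit1bl1, Bcl2a1b, Sprr2d and the MHC genes named further on, so how reads were divided among near-identical copies is uncertain.

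**Figure D2:**
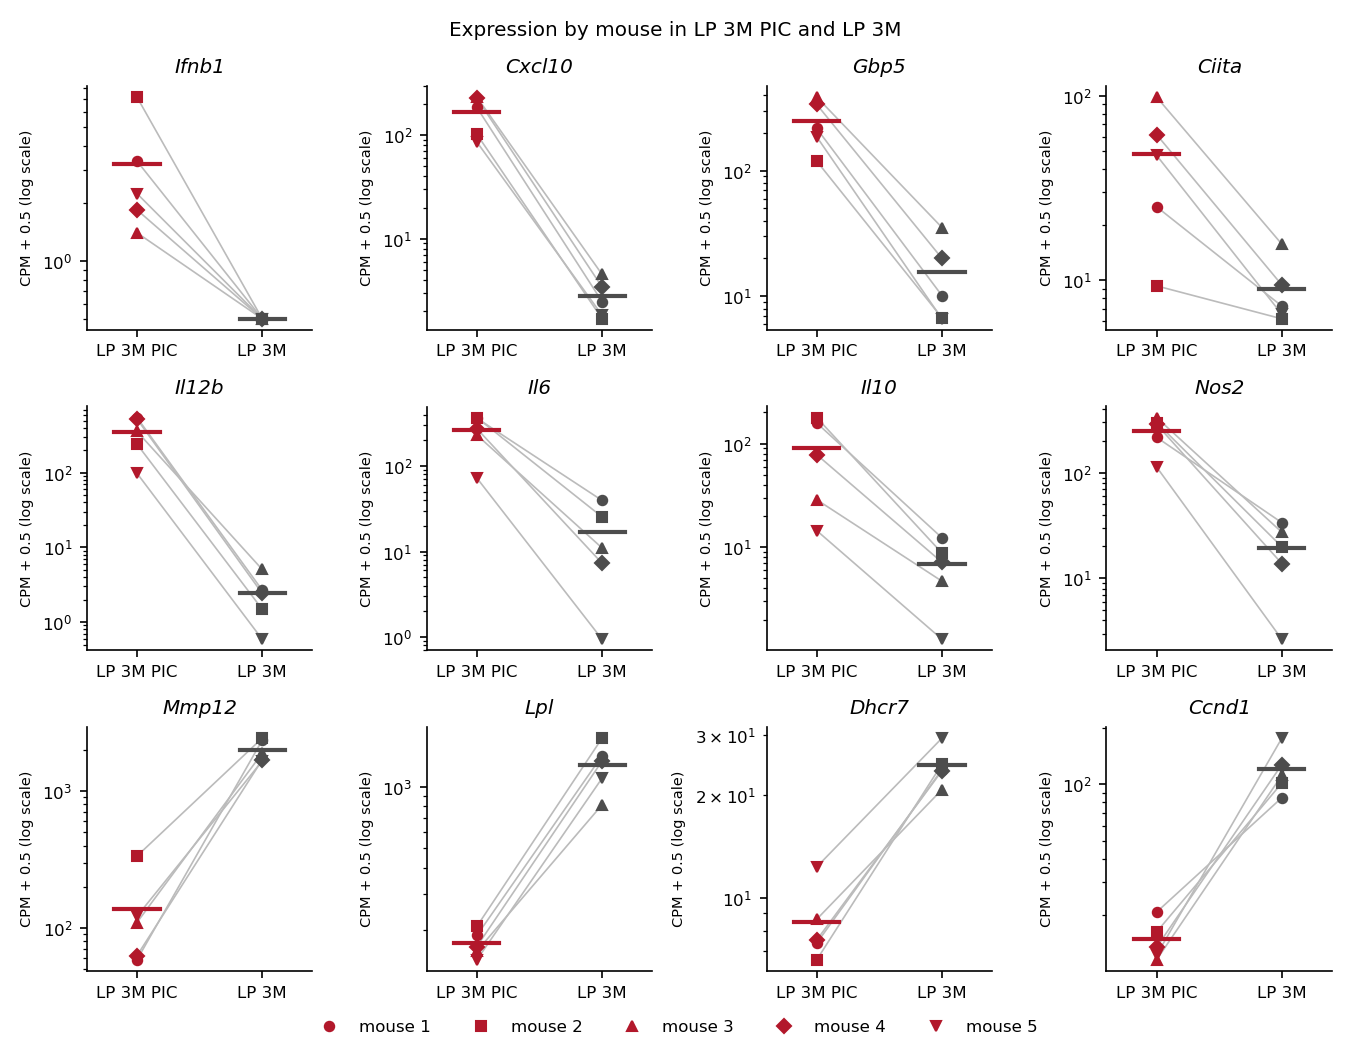
Each panel shows CPM + 0.5 on a log axis for 1 gene, with LP 3M PIC on the left in red and LP 3M on the right in grey. Symbols mark the 5 mice, grey lines join the 2 libraries of a mouse and bars show the mean. Ifnb1 was at 0 CPM in all 5 LP 3M libraries, and the lines of Mmp12, Lpl, Dhcr7 and Ccnd1 run opposite to those of the other 8 genes.

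Cytokine genes rose widely. Of 22 tested cytokine genes 18 rose and 1 fell (median 2.34). Il12b (chr11:44400063-44414033), the subunit shared by the T cell-polarising cytokines IL-12 and IL-23, had 547, 241, 357, 525 and 97.9 CPM in LP 3M PIC, against 2.17, 0.985, 4.56, 1.92 and 0.0875 CPM in LP 3M. Every LP 3M PIC library was above every LP 3M library, and mouse 5 was lowest in both groups. Il12b rose by 7.51 ± 0.61 (adjusted p = 2.92e-07), and by 8.10 without mouse 3. Il12a, the other subunit of IL-12, rose by 3.17 ± 0.54 (3.98 ± 1.27 against 0.436 ± 0.407 CPM) and by 3.83 without mouse 1. Il27, a related cytokine subunit, rose by 4.39 ± 0.50 (18.4 ± 8.59 against 0.874 ± 0.513 CPM).

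Il6 had 363, 369, 231, 274 and 72.1 CPM in LP 3M PIC, against 39.1, 24.9, 10.5, 6.78 and 0.437 CPM in LP 3M. The groups did not overlap, and mouse 5 was again lowest in both. Il6 rose by 4.00 ± 0.64 (adjusted p = 8.83e-05). Il1b, a fever-inducing cytokine, varied widely among mice. Its values were 1247, 2099, 590.4, 1218 and 119 CPM in LP 3M PIC, against 328, 160.01, 73.5, 75.2 and 3.59 CPM in LP 3M. The LP 3M PIC library of mouse 5 lay below the LP 3M libraries of mice 1 and 2, so the groups overlapped, although each mouse was higher with PIC. The rise was 3.04 ± 0.78 (adjusted p = 0.00462), and 3.69 without mouse 1. Tnf, an early inflammatory cytokine, rose by 1.27 ± 0.19 from an already high level (989.6 ± 195 against 409.9 ± 117 CPM). Lif, of the IL-6 family, rose by 3.64 ± 0.46 (8.31 ± 3.11 against 0.667 ± 0.384 CPM). Tgfb1, a suppressive cytokine, was the 1 member that fell, by 0.46 ± 0.11 (458 ± 82.1 against 629 ± 41.8 CPM).

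Il10, which restrains inflammatory macrophages, rose with the inflammatory cytokines. It had 158, 178, 28.2, 77.7 and 13.95 CPM in LP 3M PIC, against 11.8, 8.26, 4.19, 6.63 and 0.787 CPM in LP 3M. Mice 1 and 2 were highest and mouse 5 lowest in both groups, and the groups did not overlap. The rise was 3.85 ± 0.69 (adjusted p = 0.000272).

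Of 22 tested chemokine genes, which direct the traffic of leukocytes, 13 rose and 1 fell (median 1.41), and 8 rose without mouse 4. A block on mouse, or leaving out mouse 5, gave 2 falls. Cxcl10 had 186, 102, 234, 229 and 85.8 CPM in LP 3M PIC, against 1.95, 1.17, 4.00, 2.90 and 1.31 CPM in LP 3M, with no overlap between the groups. It rose by 6.21 ± 0.50 (adjusted p = 2.46e-07). Ccl5, which also attracts T cells, rose by 3.60 ± 0.54 (5583 ± 1797 against 461 ± 313 CPM). Ccl22, which attracts regulatory T cells, rose by 4.87 ± 0.57 (60.6 ± 32.8 against 2.06 ± 1.54 CPM). Cxcl9, which shares the receptor of Cxcl10, stayed near the floor (0.823 ± 0.655 against 0.187 ± 0.321 CPM) and did not pass the test (adjusted p = 0.101). A fit with a block on mouse called it (adjusted p = 0.0192), as did one without mouse 3 (adjusted p = 0.0124), and over all alternatives its adjusted p ran from 0.0124 to 0.330. Ccl6, a mouse CC chemokine, fell by 2.38 ± 0.39 (adjusted p = 0.000108). Its values were 15.9, 16.4, 25.9, 11.1 and 23.2 CPM in LP 3M PIC, against 125, 136, 96.7, 91.4 and 31.7 CPM in LP 3M. In LP 3M mouse 5 was far below the other mice, yet above every LP 3M PIC library.

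Ccr7, the receptor that leads cells to lymph nodes, had 20.9, 6.26, 47.4, 43.5 and 10.2 CPM in LP 3M PIC, against 0.577, 0.422, 0.141, 0.187 and 0 CPM in LP 3M, and the groups did not overlap. It rose by 6.56 ± 0.75 (adjusted p = 4.30e-06). Ccr7 also stands in the list of dendritic cell markers, which summed to 6.28 to 46.4 CPM in LP 3M PIC and 0.392 to 0.921 CPM in LP 3M. It made up nearly all of that sum in LP 3M PIC, but not in LP 3M, where it averaged 0.265 CPM and was at 0 in mouse 5. Of the 8 dendritic cell markers Siglech and Cd209a were at 0, and Flt3, Zbtb46, Xcr1, Clec9a and Itgae averaged at most 0.217 CPM in either group.

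NF-kB genes rose in a narrower range. Of 30 subunits, regulators and targets 26 rose and none fell (median 0.67). Tnfaip3, a brake on NF-kB, had 427, 489, 372, 436 and 283 CPM in LP 3M PIC, against 174, 162, 169.7, 149 and 146 CPM in LP 3M, without overlap, and rose by 1.33 ± 0.14 (adjusted p = 1.17e-06). Nfkbib, an inhibitor that holds NF-kB in the cytoplasm, rose by 0.85 ± 0.10 and the survival gene Bcl2a1b by 1.05 ± 0.16. Among pattern recognition receptors and adaptors 15 of 33 rose and 3 fell (median 0.37). Nod1, a sensor of bacterial wall fragments, rose by 1.95 ± 0.23 (83.9 ± 20.9 against 21.7 ± 3.84 CPM), Ifih1, the RNA sensor MDA5, by 1.57 ± 0.24 (212 ± 28.5 against 71.5 ± 26.2 CPM) and Tlr3, the endosomal receptor of double-stranded RNA, by 1.29 ± 0.21 (39.5 ± 10.4 against 16.1 ± 3.17 CPM). Tlr6, a partner of the lipopeptide receptor TLR2, rose by 0.66 ± 0.11. Irak4, the kinase next to the adaptor MyD88, fell by 0.51 ± 0.05 with little spread among mice (28.03 ± 0.953 against 39.9 ± 0.939 CPM).

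Of 23 genes for inflammasomes and cell death, 12 rose and 5 fell (median 0.28). Nlrp3, the sensor of the inflammasome that matures IL-1 beta, rose by 1.12 ± 0.11 (309 ± 46.9 against 142 ± 12.6 CPM), and Mlkl, the executor of necroptosis, by 1.14 ± 0.19 (103 ± 16.8 against 46.7 ± 9.84 CPM). Mcl1, which protects from apoptosis, fell by 0.55 ± 0.09. Its values were 416, 439.9, 424, 413 and 574 CPM in LP 3M PIC, against 645, 656, 664, 597 and 766 CPM in LP 3M, and the LP 3M PIC library of mouse 5 was above the others of its group but below every LP 3M library.

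Antigen presentation rose through both MHC classes. All 20 tested genes of MHC class I and peptide loading rose (median 1.15), and 3 further members did not pass the filter. H2-Q4, a non-classical class I gene, rose by 2.41 ± 0.27 (667 ± 158 against 125 ± 49.3 CPM) and H2-T10 by 2.36 ± 0.22 (62.1 ± 12.4 against 12.1 ± 2.69 CPM). Nlrc5, the transcriptional activator of class I genes, rose by 1.22 ± 0.15 (214 ± 35.1 against 91.9 ± 20.8 CPM). Of 12 MHC class II genes 11 rose and none fell (median 1.54). For 2 of them the groups did not overlap, against 12.1% of all tested genes with LP 3M PIC wholly above. In the 10 libraries alone with mouse as a block 1 class II gene fell. Ciita, the master regulator of class II, had 24.5, 8.82, 98.02, 61.2 and 47.1 CPM in LP 3M PIC, against 6.74, 5.68, 15.2, 8.92 and 6.03 CPM in LP 3M. Mouse 2 changed least, and its LP 3M PIC library lay within the range of LP 3M. Ciita rose by 2.49 ± 0.47 (adjusted p = 0.00044). H2-Ab1, a class II beta chain, had 418, 294, 1132, 800.4 and 792 CPM in LP 3M PIC, against 199, 157, 252, 184 and 82.4 CPM in LP 3M, and rose by 1.98 ± 0.37 (adjusted p = 0.000387). Mice 3, 4 and 5 gained most. H2-Ob, a modulator of class II loading, rose by 1.63 ± 0.32 at a low level (1.77 ± 0.842 against 0.559 ± 0.0711 CPM).

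Costimulation and checkpoint genes rose in 12 of 19 tested cases and fell in 3 (median 0.63). Cd40, through which T cells license macrophages, had 218, 123, 397, 368 and 136 CPM in LP 3M PIC, against 30.6, 23.1, 31.7, 21.1 and 12.9 CPM in LP 3M, without overlap, and rose by 3.38 ± 0.40 (adjusted p = 6.38e-06). Cd86, a ligand that costimulates T cells, rose by 0.94 ± 0.21 (33.1 ± 9.01 against 17.2 ± 3.74 CPM), and Cd274, which encodes the inhibitory ligand PD-L1, by 1.67 ± 0.22 (869 ± 192 against 273 ± 78.5 CPM). Slamf1, a self-ligand and receptor for bacteria, rose by 4.83 ± 0.61, with 1.24 CPM in mouse 5 and 5.76 to 9.63 CPM in the other mice of LP 3M PIC, against 0.0875 to 0.443 CPM in LP 3M. Havcr2, which encodes the inhibitory receptor TIM-3, fell by 1.39 ± 0.28 (20.5 ± 12.3 against 53.98 ± 15.4 CPM).

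**Figure D3:**
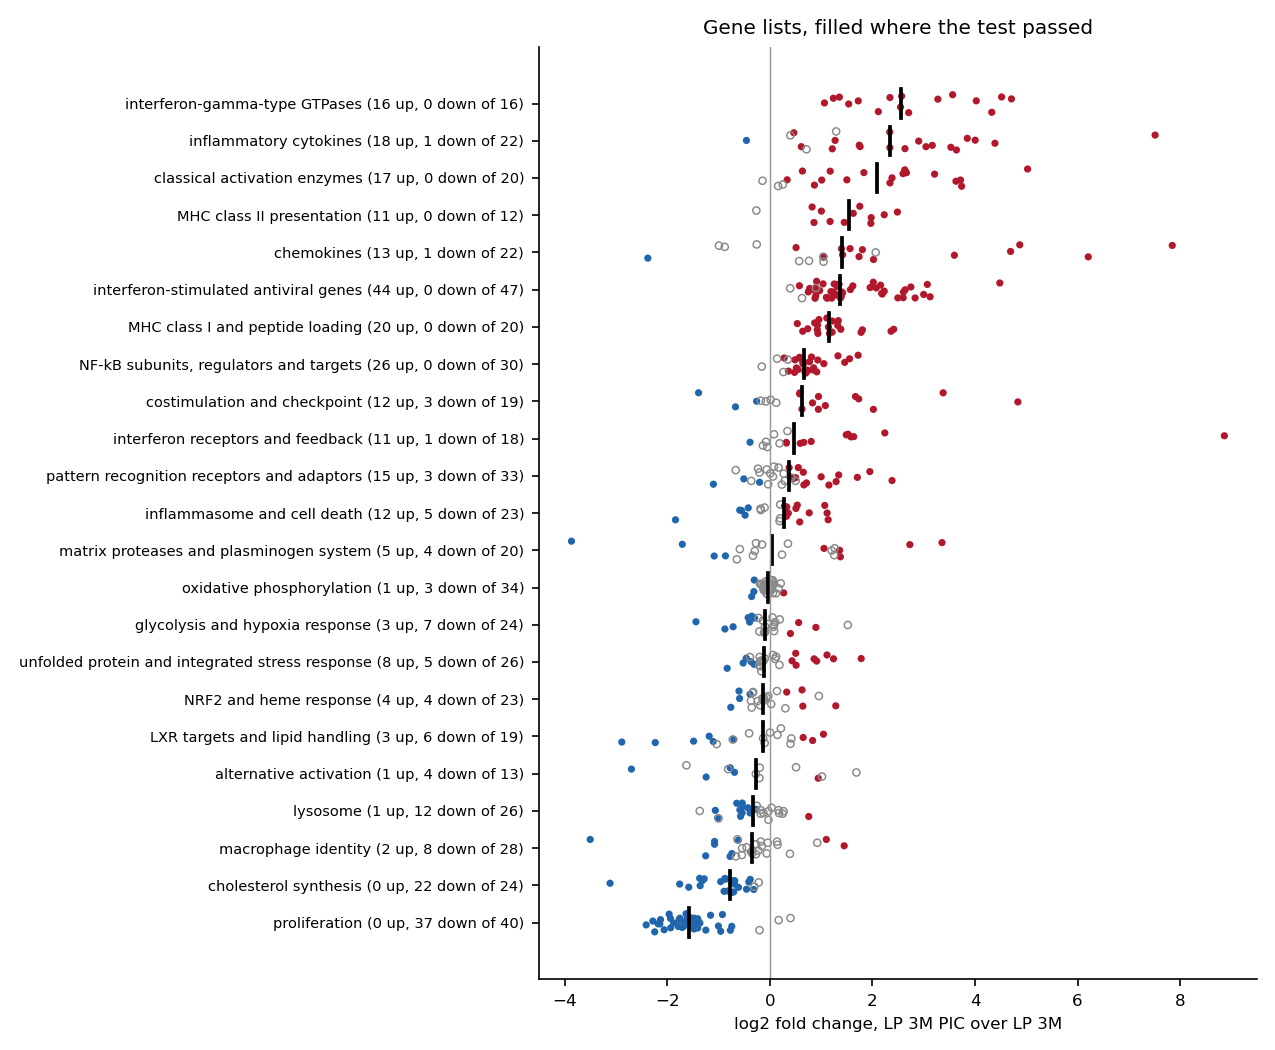
Each row is a gene list and each point 1 tested member, placed by its log2 fold change of LP 3M PIC over LP 3M on the x axis. Filled points passed the test (red higher, blue lower), open points did not, and black bars mark the list median, from 2.56 for the GTPases at the top to −1.58 for proliferation at the bottom. Ifnb1, the point farthest right among interferon receptors and feedback, stands at a fitted value that is no estimate of its fold.

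Enzymes of classical activation rose in 17 of 20 tested cases and fell in none (median 2.09). Nos2, the inducible nitric oxide synthase, had 216, 298, 332, 286 and 113 CPM in LP 3M PIC, against 33.1, 19.3, 26.8, 13.3 and 2.14 CPM in LP 3M. Mouse 5 was lowest in both groups, and the groups did not overlap. Nos2 rose by 3.72 ± 0.59 (adjusted p = 7.99e-05). Hdc, which makes histamine, rose by 5.02 ± 0.64 (7.99 ± 4.46 against 0.239 ± 0.159 CPM), Arg2, the mitochondrial arginase, by 1.50 ± 0.21 (8.64 ± 2.31 against 3.06 ± 0.482 CPM) and Gch1, which makes the biopterin cofactor of nitric oxide synthase, by 0.87 ± 0.12 (145 ± 3.97 against 79.6 ± 15.3 CPM). Irg1, the itaconate-producing enzyme now named Acod1, rose by 1.01 ± 0.33 (1794 ± 334 against 891 ± 168 CPM, adjusted p = 0.0193) but did not pass without mouse 4 (adjusted p = 0.0938, against 0.000435 to 0.0938 over all alternatives).

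Of 13 tested genes of alternative activation, a state linked to tissue repair, 1 rose and 4 fell (median −0.27). That share was near the 41.5% called over all tested genes. With mouse as a block 3 rose. In the 10 libraries alone with the block, 7 fell. Mrc1, the mannose receptor, had 14.3, 9.23, 4.20, 5.13 and 13.9 CPM in LP 3M PIC, against 83.3, 108, 26.5, 42.6 and 48.1 CPM in LP 3M, without overlap, and fell by 2.70 ± 0.59 (adjusted p = 0.00143). Stab1, a scavenger receptor, fell by 0.69 ± 0.09 (437 ± 65 against 704 ± 79.7 CPM), and Pparg, a lipid-sensing nuclear receptor, by 0.77 ± 0.15 (7.89 ± 1.60 against 13.6 ± 1.77 CPM). Klf4, a transcription factor, was the member that rose, by 0.94 ± 0.26. Arg1, the cytosolic arginase, was carried by mice 1 and 2, with 11.9, 33.98, 0.165, 0.486 and 0.0853 CPM in LP 3M PIC, against 9.45, 4.46, 0.282, 0.140 and 0.262 CPM in LP 3M. Arg1 was higher in 3 of 5 mice, the groups overlapped and it did not pass the test (1.69 ± 1.20, adjusted p = 0.273). With mouse as a block it did (adjusted p = 0.0424, against 0.0424 to 0.866 over all alternatives).

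Genes of cell division fell together. Of 40 proliferation genes 37 fell and none rose (median −1.58). For 37 of them the groups did not overlap, against 13.1% of all tested genes with LP 3M PIC wholly below. Without mouse 5, 1 proliferation gene rose. Mcm2, a subunit of the replicative helicase, had 17.6, 15.7, 14.6, 18.8 and 11.5 CPM in LP 3M PIC, against 44.1, 47.5, 44.02, 59.2 and 56.3 CPM in LP 3M, and fell by 1.68 ± 0.14 (adjusted p = 2.92e-07). The helicase subunits Mcm6 and Mcm3 fell by 1.36 ± 0.12 and 1.00 ± 0.10. Ccnd1, the cyclin that takes cells out of G1, had 20.3, 15.8, 11.1, 13.1 and 11.8 CPM in LP 3M PIC, against 84.3, 101, 111, 127 and 176 CPM in LP 3M. All LP 3M PIC libraries were far below all LP 3M libraries, and mouse 5 was highest in LP 3M. Ccnd1 fell by 3.05 ± 0.27 (adjusted p = 6.13e-07). Mki67, a marker of cycling cells, fell less, by 0.77 ± 0.18 (91.3 ± 17.2 against 156 ± 42.5 CPM).

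Cholesterol synthesis fell almost throughout. Of 24 tested genes 22 fell and none rose (median −0.79). For 18 of them the groups did not overlap, against 13.1% of all tested genes with LP 3M PIC wholly below. Hmgcs1, an early enzyme of the pathway, had 25.4, 24.2, 32.9, 23.5 and 35.5 CPM in LP 3M PIC, against 49, 54.7, 47.8, 47.8 and 58.5 CPM in LP 3M, and fell by 0.87 ± 0.15 (adjusted p = 0.00015). Dhcr7, which acts late in the pathway, had 6.86, 6.08, 8.15, 7.02 and 11.8 CPM in LP 3M PIC, against 23.3, 24.2, 20.3, 23.1 and 28.9 CPM in LP 3M, without overlap, and fell by 1.58 ± 0.17 (adjusted p = 2.52e-06). Stard4, a sterol transfer protein, fell by 1.76 ± 0.26 (4.97 ± 1.25 against 16.7 ± 1.35 CPM).

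Of 19 LXR targets and lipid-handling genes 3 rose and 6 fell (median −0.13), a share near the 41.5% called over all tested genes. The rises numbered 6 with a block on mouse and 5 without mouse 5, and 6 without its LP 3M library. Lpl, the lipoprotein lipase, had 188, 208, 157, 166 and 143 CPM in LP 3M PIC, against 1414, 1720.3, 815, 1331 and 1098 CPM in LP 3M, without overlap, and fell by 2.89 ± 0.34 (adjusted p = 5.60e-06). Fasn, the fatty acid synthase, fell by 1.18 ± 0.15 (38.1 ± 2.42 against 86.5 ± 10.5 CPM). Abcg1, a cholesterol exporter and LXR target, rose by 0.65 ± 0.08 (108 ± 8.29 against 68.96 ± 3.87 CPM). Lipg, an endothelial-type lipase, was among the largest rises at 7.24 ± 1.15 (adjusted p = 8.69e-05). Its values were 35.05, 8.15, 3.54, 19.1 and 0.939 CPM in LP 3M PIC, against 0.0443, 0.188, 0.0470, 0.140 and 0 CPM in LP 3M, so mouse 1 was highest and mouse 5 lowest. Without mouse 1 its change was 6.33 and without mouse 2 it was 7.88.

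Macrophage identity genes were lower in 8 of 28 cases and higher in 2 (median −0.34), a share near the 41.5% called over all tested genes. Csf1r, the receptor of CSF-1, had 1301, 1360.2, 1436, 1261 and 1655 CPM in LP 3M PIC, against 1929.5, 1819, 2366, 2073 and 2554 CPM in LP 3M, without overlap, and fell by 0.61 ± 0.11 (adjusted p = 0.000173). Lyz2, lysozyme, fell by 1.08 ± 0.23 (6654 ± 1734 against 14049.7 ± 2774 CPM). Cx3cr1, the fractalkine receptor, fell by 3.50 ± 0.88 (adjusted p = 0.00401). It was at 1.66 to 2.61 CPM in LP 3M PIC, against 4.13 and 6.03 CPM in mice 2 and 1 and 26.9 to 48.1 CPM in the other mice of LP 3M. Fcgr2b, the inhibitory Fc receptor, rose by 1.45 ± 0.29 (509.6 ± 186 against 187 ± 71.96 CPM). The number of members that rose was 1 without mouse 1, mouse 2 or the LP 3M library of mouse 5, and in the 10 libraries alone with mouse as a block 15 fell.

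Of 26 lysosomal genes 12 fell and 1 rose (median −0.33), and 6 fell without mouse 4. A block on mouse gave 3 rises, and leaving out mouse 2 gave 2. Ctsb, a cathepsin, fell by 0.56 ± 0.10 (9851 ± 1291 against 14557 ± 1449 CPM), Gusb by 1.06 ± 0.17 (492 ± 109 against 1027 ± 121 CPM) and Glb1, a galactosidase, by 0.54 ± 0.11. Ctsh, another cathepsin, rose by 0.76 ± 0.20 (450.4 ± 51.8 against 266 ± 23.2 CPM). Among 20 matrix proteases and plasminogen genes 5 rose and 4 fell (median 0.04), a share near the 41.5% called over all tested genes. Without mouse 2 or mouse 3, 3 rose. Mmp12, the macrophage elastase (chr9:7344381-7369499), had 58.2, 335, 109, 62.4 and 121 CPM in LP 3M PIC, against 2350.5, 2433, 1889.98, 1691 and 1657 CPM in LP 3M. Mouse 2 kept most in LP 3M PIC, and the groups were far apart. Mmp12 fell by 3.87 ± 0.55 (adjusted p = 3.09e-05). Timp2, an inhibitor of matrix proteases, fell by 1.71 ± 0.16 (97.8 ± 26.4 against 319.6 ± 56.3 CPM) and Mmp19 by 0.87 ± 0.18.

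Subunits of oxidative phosphorylation showed small changes. Of 34 nuclear-encoded subunits of oxidative phosphorylation 1 rose and 3 fell (median −0.04): Ndufs1 fell by 0.31 ± 0.06, Sdha by 0.30 ± 0.07 and Ndufa4 by 0.36 ± 0.10. Ndufs3 rose by 0.27 ± 0.10 (adjusted p = 0.0436) and missed the threshold when mouse 1, 3, 4 or 5 was left out, with an adjusted p of 0.0162 to 0.188 over all alternatives. Of 24 genes of glycolysis and the hypoxia response 3 rose and 7 fell (median −0.09), a share near the 41.5% called over all tested genes, with 1 that rose without mouse 2 or mouse 4 and 3 that fell without mouse 1. Pdk1, which limits entry of pyruvate into mitochondria, fell by 0.88 ± 0.14 (30.6 ± 3.28 against 56.2 ± 8.90 CPM), Pfkp, a phosphofructokinase, by 0.72 ± 0.12 (77.1 ± 7.55 against 127 ± 7.84 CPM), and the hypoxia regulator Hif1a rose by 0.56 ± 0.10 (235 ± 20.6 against 159 ± 17.6 CPM).

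In both stress lists the share of members called was not far from the 41.5% over all tested genes. Of 26 genes of the unfolded protein and integrated stress responses 8 rose and 5 fell (median −0.11), and 8 fell without the LP 3M library of mouse 5. Ddit3 and Ppp1r15a, both induced by the integrated stress response, rose by 1.11 ± 0.13 (82.6 ± 7.50 against 38.2 ± 3.54 CPM) and 1.24 ± 0.11 (128 ± 15.9 against 54.2 ± 6.46 CPM), while Sdf2l1, a chaperone of the endoplasmic reticulum, fell by 0.83 ± 0.11 (58.3 ± 2.84 against 104 ± 20.2 CPM). Of 23 NRF2 and heme response genes 4 rose and 4 fell (median −0.12). The falls numbered 7 with a block on mouse and without mouse 5, and 2 without mouse 4 or without the LP 3M library of mouse 5. Slc7a11, the cystine importer, rose by 1.28 ± 0.28 (429 ± 73.6 against 176 ± 42.4 CPM), Gsr, glutathione reductase, by 0.63 ± 0.12, and Tkt, of the pentose phosphate pathway, fell by 0.59 ± 0.11 (332 ± 39.1 against 499.6 ± 25.8 CPM).

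Some of the largest changes fell outside these lists. Krt16, a keratin of stressed epithelia, had 885 counts over the LP 3M PIC libraries and 2 over the LP 3M libraries, which is 499.7-fold (95% counting interval 138 to 4133). Its LP 3M PIC values were 3.80, 1.49, 33, 14.5 and 4.44 CPM, so mouse 3 carried much of the total. Without mouse 3 the ratio was 252-fold (interval 69.3 to 2085). Both LP 3M counts were in mouse 4, without which the level was at least 231-fold higher against a floor of 3 counts over the group. Dnase1l3, a secreted DNase, had 511 counts and 1 count, which is 577-fold (interval 103 to 22837), and ranged from 0.585 to 9.93 CPM in LP 3M PIC. The 1 count was in mouse 3, without which the level was at least 145-fold higher, and without mouse 4 the ratio was 367-fold (interval 65.5 to 14549). Heatr9 rose by 5.69 ± 0.64 (6.04 ± 2.72 against 0.113 ± 0.122 CPM). Sprr2d, an epithelial cornified envelope gene, rose by 5.95 ± 0.91, with 18.2, 23.5, 2.22, 6.48 and 1.83 CPM in LP 3M PIC, against 0.443, 0.235, 0.0941, 0.0467 and 0 CPM in LP 3M, and was highest in mice 1 and 2.

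Among the falls, Mamdc2 had 0, 0.0900, 0.165, 0.108 and 0.213 CPM in LP 3M PIC, against 5.59, 7.18, 8.23, 8.64 and 19.02 CPM in LP 3M. It was nearly lost in every mouse and fell by 6.35 ± 0.92 (adjusted p = 3.56e-05). Nes, the intermediate filament gene nestin, fell by 3.70 ± 0.46 (1.57 ± 0.853 against 19.9 ± 8.06 CPM), Pcp4l1 by 3.38 ± 0.34 (1.10 ± 0.478 against 12.03 ± 3.49 CPM), Nxpe5 by 3.01 ± 0.60 (1.08 ± 0.810 against 9.03 ± 5.61 CPM) and Serinc2, a membrane protein gene, by 3.12 ± 0.88. Serinc2 was uneven in LP 3M, at 24.04, 19.3, 1.79, 3.13 and 2.14 CPM. Cspg4, the proteoglycan NG2, fell by 3.02 ± 0.98 (adjusted p = 0.0189) and missed the threshold without mouse 3, without mouse 4 and without the LP 3M library of mouse 5, with an adjusted p of 3.69e-05 to 0.0653 over all alternatives.

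Markers of other cell types were mostly low. The summed level of the neutrophil list was 333 to 4131 CPM in LP 3M PIC (median 1202) and 167 to 832 CPM in LP 3M (median 332). Of its 5 tested members 3 rose, none fell and the rest were not called. Lcn2, the siderophore-binding lipocalin, had the highest mean of the list, 1400 CPM in LP 3M PIC and 273 CPM in LP 3M. It was at 192 to 3446 CPM in LP 3M PIC against 65.4 to 627 CPM in LP 3M, and S100a8 ran from 3.46 to 564 CPM against 3.29 to 16.7 CPM. Lcn2 did not make up most of the sum in every LP 3M library. Csf3r, which also rose, was at 90.2 to 231 CPM in LP 3M PIC against 69.0 to 108 CPM in LP 3M. Retnlg was at 0 and S100a9, Ngp, Elane, Mpo, Ltf and Cxcr2 averaged at most 0.137 CPM in either group. Of the T and NK cell markers Lck was at 0.945 to 2.13 CPM in LP 3M PIC and 0.375 to 0.798 CPM in LP 3M, and Cd3e, Cd3g, Cd8a, Ncr1 and Prf1 were at 0. The fibroblast list summed to 33.1 to 137 CPM and 30.8 to 90.0 CPM, with 2 of 7 members higher. All 6 erythroid markers were at 0, the B cell list summed to at most 1.19 CPM and the mast cell list to at most 1.83 CPM in any library. The part of other cell types in the changes above was not tested.

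The last question was whether PIC changed the cells differently on particles that carried 3M than on plain ones. LP PIC was compared with LP in the same fit, and the difference between the 2 changes was tested as an interaction. The 2 comparisons share no library, and their difference assumes equal amounts of PIC on both particles, which the sources used here do not give. On plain particles 5515 genes were called (45.5%), 2758 higher (22.7%) and 2757 lower (22.7%) with PIC. Genes that rose in both numbered 1566, which is 63.1% of the rises on 3M particles and 56.8% of those on plain particles, and genes that fell in both numbered 1708 (67.0% and 62.0%). The interaction was called for 1023 genes (8.43%), 463 with a higher change on 3M particles (3.82%) and 560 with a lower one (4.62%). A block on mouse raised this to 1656. The number depended on which mouse was left out: it was 182 without mouse 1, 291 without mouse 2, 242 without mouse 4, 702 without mouse 3 and 1398 without mouse 5.

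**Figure D4:**
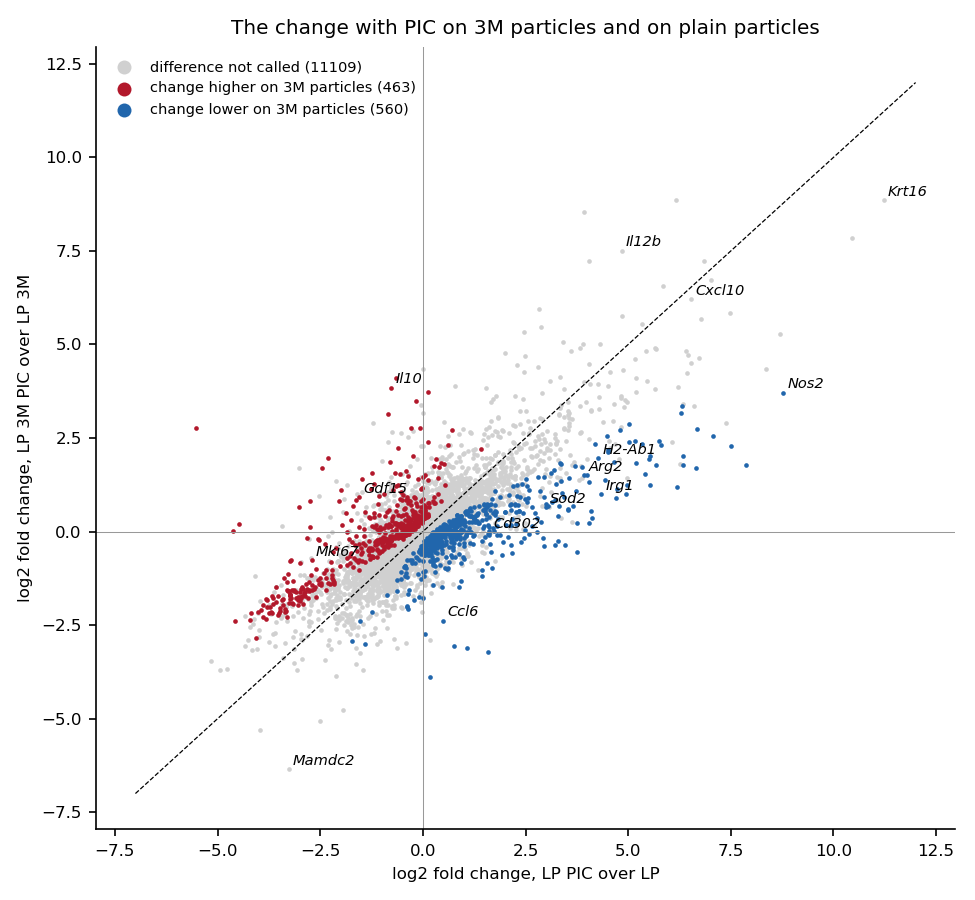
Each point is 1 tested gene, with the log2 fold change of LP PIC over LP on the x axis and of LP 3M PIC over LP 3M on the y axis. Red points (463) changed higher and blue points (560) lower on 3M particles by the interaction test, grey points (11109) were not called, and the dashed line marks equal changes. Mki67 lies above the line at the lower left, and Nos2, Irg1 and Sod2 lie below it on the right.

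On the log2 scale, several activation genes rose less with PIC where the particles also carried 3M. Those named here started from a higher level in LP 3M than in LP, and the comparison is of ratios, not of CPM gained. Of 20 classical activation enzymes 8 had a lower change on 3M particles and none a higher one, as had 9 of 30 NF-kB genes. Over all tested genes 4.62% had a lower change. No list count of interaction calls, here or below, was repeated with a mouse left out. Nos2 averaged 92.9 ± 59.8 CPM in LP PIC and 0.208 ± 0.159 CPM in LP, the latter near the floor of 3 counts. PIC changed it by 8.77 ± 0.89 on plain particles, and the interaction was −5.05 ± 1.11 (adjusted p = 0.00932). It was −4.45 without mouse 1 (adjusted p = 0.0913) and −5.68 without mouse 3, and missed the threshold also without mouse 2 or 4. Sod2, the mitochondrial superoxide dismutase, averaged 1739 ± 217 CPM in LP 3M PIC and 1106 ± 207 CPM in LP 3M, and 599.8 ± 144 CPM in LP PIC and 74.7 ± 11.5 CPM in LP (interaction −2.35 ± 0.23, adjusted p = 9.71e-06). For Irg1 the interaction was −3.33 ± 0.47 (adjusted p = 0.000359), with 522 ± 136 CPM in LP PIC and 25.5 ± 16.4 CPM in LP, and for Arg2 it was −2.43 ± 0.33 (adjusted p = 0.000215). H2-Ab1 reached 792 ± 90.1 CPM in LP PIC and 41.1 ± 20.4 CPM in LP, with an interaction of −2.29 ± 0.51 (adjusted p = 0.0107) that missed the threshold without mouse 1, 2 or 4.

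Other genes with small interaction p had a strong change on plain particles and little or none on 3M particles. Cd302, a lectin receptor, averaged 171 ± 17.1 CPM in LP 3M PIC and 174 ± 15.5 CPM in LP 3M, a difference within the spread, and 141 ± 4.87 CPM in LP PIC and 45.95 ± 2.06 CPM in LP (interaction −1.65 ± 0.10, adjusted p = 9.38e-09). Ralgds, a Ral activator, was not called on 3M particles (0.21 ± 0.14) and rose by 2.27 ± 0.14 on plain ones. Slc31a2, a copper transporter, rose by 0.52 ± 0.11 and 2.27 ± 0.12, and Psmd10, a proteasome assembly factor, by 0.44 ± 0.09 and 1.76 ± 0.10. Ccl6 showed the reverse: it fell on 3M particles, was not called on plain ones (0.50 ± 0.36) and had an interaction of −2.88 ± 0.53 (adjusted p = 0.00317).

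Proliferation genes fell less with PIC on 3M particles. Of 40, 26 had a higher change there, against 3.82% of all tested genes, and none a lower one. The median was −1.58 on 3M and −2.66 on plain particles. Mki67 averaged 91.3 ± 17.2 CPM in LP 3M PIC and 156 ± 42.5 CPM in LP 3M, and 40.5 ± 3.53 CPM in LP PIC and 265 ± 67.6 CPM in LP (interaction 1.94 ± 0.26, adjusted p = 0.000208). Cholesterol synthesis went deeper on 3M particles in 4 of 24 genes and less deep in none, against 4.62% of all tested genes with a lower change. It had 22 falls there and 6 on plain particles (medians −0.79 and −0.29). For Dhcr7 the interaction was −0.96 ± 0.24 (adjusted p = 0.0183), which missed the threshold without mouse 1, 2, 3 or 4.

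A few genes were called in opposite directions, and Abcb4 and Il10, named after them, were not among these. Of the genes that rose on 3M particles 30 fell on plain ones, and of those that fell 32 rose. Gdf15, a stress-induced cytokine, had 86.3, 59.2, 133, 116 and 92.3 CPM in LP 3M PIC, against 60.4, 51.1, 57.2, 46.6 and 40.01 CPM in LP 3M, so that it rose with PIC in every mouse, while it fell by 1.55 ± 0.18 with PIC on plain particles (14.2 ± 2.39 CPM in LP PIC and 41.5 ± 5.82 CPM in LP). Its interaction was 2.48 ± 0.25 (adjusted p = 1.27e-05). Dcakd, a coenzyme A kinase-like gene, rose by 0.38 ± 0.10 on 3M particles and fell by 0.75 ± 0.10 on plain ones. Abcb4, a phospholipid transporter, fell by 0.44 ± 0.16 in 4 of 5 mice on 3M particles, which did not pass without mouse 1, 2, 4 or 5 (adjusted p 0.0115 to 0.124 over all alternatives), and by 2.12 ± 0.16 on plain ones (interaction 1.68 ± 0.22). Il10 was at 0.691 ± 0.451 CPM in LP PIC and 1.30 ± 1.10 CPM in LP, low in both, and its interaction was 4.61 ± 1.19 (adjusted p = 0.0226), which missed the threshold without mouse 1, 2 or 4 (adjusted p 0.000216 to 0.158 over all alternatives).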

How the data were processed

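RNA of macrophages from 5 mice under 4 conditions was sequenced, 20 libraries in all, of which LP 3M PIC and LP 3M hold 5 each. The authors deposited raw read counts per gene symbol. Per the labels, libraries were stranded and poly(A)-enriched, and the submitters' processing notes list HTSeq 0.13.5, STAR 2.7.11b, FastQC 0.11.1 and DESeq2 1.44.0, with build GRCm38. No source used here states the annotation or the strand setting of the counting. Per the files, 5.94 to 7.77% of the reads of these 10 libraries lay outside genes and 1.19 to 1.78% were shared by genes, and neither entered library sizes or tests.

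Counts were kept by filterByExpr (minimum 10, total 15), scaled by TMM and tested two-sided with the quasi-likelihood F-test (robust) of edgeR 4.0.16 in R 4.3.3, with 1 mean per condition over all 20 libraries and Benjamini-Hochberg adjustment over 12132 genes (called under 0.05). The biological coefficient of variation was 0.194. CPM use TMM-scaled sizes, and marker sums use plain totals. Intervals and floors cover counting error only. On simulated counts for 12010 genes, the fit recovered 98 of 100 genes changed by 1 log2 and 100 of 100 changed by 2, with 9 false calls. The simulation gave every gene the same spread and held no differences between mice. It changed only those genes and none of the lowest expressed, so these figures are not error rates of the real comparison. No pair of the 10 libraries held duplicate counts (chi-squared per degree of freedom 13.0 to 399 over 45 pairs). The labels give same-numbered libraries the same mouse, and their deviations from the group means correlated at 0.354 to 0.541, against −0.392 to 0.375 for other pairs. The block on mouse was an alternative, beside DESeq2 1.42.0, RLE scaling, no filter, the 10 libraries alone and libraries left out, 13 in all.

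The comparison, its gene lists and its tests were chosen with earlier results of these data known. The 23 lists held 591 genes, 588 in the tables and 559 tested, and are described by counts and medians with no test of their own. Genes were named by a rule: the 10 largest rises and 10 largest falls with at least 5 CPM in the higher group and 1 direction in 5 of 5 mice, per list the 3 members of smallest p and the best-supported call that ran against the list's median, the 5 smallest interaction p in each direction, a panel of 24 genes and up to 3 members per marker list. Some genes that the rule names are not reported here. The other list members and markers named were chosen after their values were seen. Coordinates come from GENCODE on GRCm38, with 23376 symbols matched (95.7%), and promoters from RefSeq. Tables and figures were made with Python 3.11.15, pandas 2.3.3, numpy 2.4.6 and matplotlib 3.10.9.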

Additional observations from a re-analysis of the deposited data

Results flagged for a closer look

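Of 232 group values of named genes, 11 held a library far from the other 4 of its group by Dixon's criterion for 5 values (0.71), which chance meets in about 1 of 20 groups. In LP 3M PIC these were the libraries of mouse 5 for H2-T10 (41.3 CPM), Il6 (72.1 CPM), Slamf1 (1.24 CPM) and Mcl1 (574 CPM), of which Mcl1 lay above and the other 3 below their group. In LP 3M, mouse 5 was apart for Ccl6 (31.7 CPM) and H2-Ob (0.437 CPM), mouse 3 for Cxcl9 (0.753 CPM), Dnase1l3 (0.0470 CPM) and Ifit1bl1 (1.65 CPM), mouse 4 for Krt16 (0.0934 CPM) and mouse 2 for Tkt (455 CPM). The Dnase1l3 and Krt16 values are 1 and 2 counts.

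For 29 named genes the change with PIC differed between 3M and plain particles by the interaction test, given here on the log2 scale as the change on 3M particles minus that on plain ones. Higher changes on 3M particles were those of Il10 (4.61), Gdf15 (2.48), H2-Ob (2.03), Mki67 (1.94), Abcb4 (1.68), Dcakd (1.13), Tcf4 (0.75), Ppp1r15a (0.70), Abcg1 (0.57) and Ptpn2 (0.37). Lower changes were those of Nos2 (−5.05), Irg1 (−3.33), Ccl6 (−2.88), Arg2 (−2.43), Sod2 (−2.35), H2-Ab1 (−2.29), Ralgds (−2.06), Slc7a11 (−1.96), Slc31a2 (−1.75), Cd302 (−1.65), Cd86 (−1.34), Psmd10 (−1.31), Lyz2 (−1.08), Dhcr7 (−0.96), Gch1 (−0.82), Timp2 (−0.82), Csf1r (−0.65), Hif1a (−0.61) and Mcl1 (−0.60). Of the 29, 14 passed under every alternative run and 15 missed the threshold under at least 1 that left out a mouse.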

How the results depend on the processing

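The number of called genes stayed within 1.5 times of 5032 under all 13 alternatives, at 5276 with DESeq2, 5038 with RLE scaling, 4789 without the filter, 4403 in the 10 libraries alone and 5808 with mouse as a block, and 3844 to 4759 when 1 mouse was left out. Of the 5032 genes, 75.5% (without mouse 4) to 99.6% (DESeq2) were called again. The interaction was less stable. A block on mouse gave 1656 genes (704 higher, 952 lower). With 1 mouse left out it ranged from 182 to 1398 (60 to 616 higher, 122 to 782 lower), and 364 were lower without mouse 3. The cause was not tested. Among 116 named genes the block ended no call and added those of Arg1 and Cxcl9. It ended none of the 29 interaction calls of named genes, and whether it added any was not followed. Abcb4, Cspg4, Irg1 and Ndufs3 lost their call under at least 1 alternative. Cd302, which was not called, changed by −0.028 with all mice and by −0.071 to 0.018 with 1 mouse left out, positive without mouse 1. The interaction could not be fitted in the 10 libraries alone. Genes near the floor of 3 counts, such as Cxcl9, are limited by depth, no source used here states the doses, and the p-values rest on 5 mice.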

Other observations

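Among genes called in opposite directions with PIC on 3M and plain particles, those averaging under 5 CPM in every group were left out. So were unnamed gene models, and the interactions of the genes left out were not counted. Of the others, 55 also had a called interaction, Gdf15 and Dcakd among them, and 24 of these rose and 31 fell on 3M particles. The genes named here were chosen after their values were seen. Cx3cl1, the gene of fractalkine, had 6.91, 5.72, 11.4, 10.5 and 3.84 CPM in LP 3M PIC, against 1.60, 2.21, 3.53, 4.81 and 2.10 CPM in LP 3M. Each mouse was higher with PIC, although the groups overlapped, and Cx3cl1 rose by 1.42 ± 0.32 (edgeR adjusted p = 0.00171). Its receptor gene Cx3cr1 fell in the same libraries, but was not among the opposite genes. Cx3cr1 also fell with PIC on plain particles, by 3.14 ± 0.81 (interaction −0.36, adjusted p = 0.888). On plain particles Cx3cl1 fell by 1.47 ± 0.33 with PIC, and the interaction was 2.89 ± 0.46 (adjusted p = 0.00105).

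Osgin1, a gene of the oxidative stress response, rose by 0.62 ± 0.11 on 3M particles and fell by 0.43 ± 0.11 on plain ones. C1rl, a relative of a complement protease, fell by 0.63 ± 0.22 on 3M particles (5.19 ± 1.46 CPM in LP 3M PIC and 8.06 ± 1.87 CPM in LP 3M) and rose by 1.92 ± 0.23 on plain ones. Adam17, the protease that sheds TNF and fractalkine from the cell surface, fell by 0.41 ± 0.10 on 3M particles (350 ± 42.1 CPM and 465 ± 66.0 CPM) and rose by 0.64 ± 0.10 on plain ones. Flot1, a membrane raft gene, fell by 0.96 ± 0.18 on 3M particles and rose by 0.55 ± 0.17 on plain ones.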
